A study of Mus musculus with 12 samples.

Results

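The genes described here are 38 genes of glycolysis and of the response to low oxygen, chosen by name as a fixed list and looked up by gene symbol in the deposited count table. All 38 were among the 25700 genes of the table, all had counts, and all 38 passed the filter on low counts that left 13844 genes for testing. They were measured by bulk RNA sequencing of cells enriched from digested mouse livers with magnetic beads that bind F4/80, which mouse macrophages carry on their surface. Of the 12 libraries, 3 came from Spta wt/wt mice (WT) given saline, 3 from Spta sph/sph mice given saline, 3 from WT mice given agonistic anti-CD40 antibody at 20 mg/kg, and 3 from sph/sph mice given the same antibody, all by intraperitoneal injection. The design text counts 3 mice per group, so libraries are taken as separate animals. The labels give a time of 30 h and describe littermate controls and male mice aged 8 to 10 weeks. Mice homozygous for the sph allele have fragile red cells that liver and spleen macrophages take up. Engaging CD40, a receptor of antigen-presenting cells that include macrophages, activates them. By its title, the study asked if liver macrophages that engulf red cells turn anti-inflammatory.

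Glycolysis breaks glucose down to pyruvate in the cytosol, and lactate dehydrogenase turns pyruvate into lactate, which leaves the cell through monocarboxylate carriers. The hypoxia-inducible factors HIF-1 and HIF-2 pair an alpha subunit (encoded by Hif1a and Epas1) with ARNT and switch on most of these genes. With oxygen present, prolyl hydroxylases encoded by the Egln genes mark the alpha subunits for destruction, so much of HIF control lies in protein that RNA sequencing does not read. In macrophages, inflammatory stimuli are known to raise Hif1a transcription and glycolysis also when oxygen is not limiting.

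Levels are given as CPM (counts scaled to a common library total and corrected for composition), and a gene was called at an edgeR quasi-likelihood adjusted p under 0.05 over all 13844 genes. Letters A to C name libraries within a group. The headers of both A libraries under saline carry the same number, as do those of both A libraries under anti-CD40, and what these numbers stand for is not given. Library totals ran from 14991250 to 18984067 counts. The table headers call the control genotype heterozygous where the labels say wild type. The A library of each group had 0 counts of 4 Y-linked genes, against 2436 to 4055 in the other 8 libraries, although the labels describe male mice.

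One library stood apart. Sph/sph anti-CD40 C correlated less with its own group (mean r across genes = 0.895, as a description) than with sph/sph saline (0.940), whereas A and B did the reverse (0.931 against 0.914, and 0.940 against 0.937). Among the 38 genes it was the lowest of its group in 30. It lay below all 3 sph/sph saline libraries in 19, whereas A and B both lay above all 3 in 26. Results that rest on it, or on the spread between libraries that it widens, are given with and without it. Leaving it out by itself raises the sph/sph anti-CD40 mean of each gene in which it was the lowest.

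The defining macrophage genes Csf1r and Cd68 were present in every library, but lower in WT anti-CD40: Csf1r stood at 5831 to 6245 CPM in WT saline and 186 to 539 CPM in WT anti-CD40, and Cd68 at 869.6 to 1012 and 208 to 576 CPM. Of 10 macrophage markers edgeR called 7 lower with anti-CD40 in WT and none higher. The means of Itgam and Lyz2 went the other way, from 138 and 5451 CPM in WT saline to 420 and 8074 CPM in WT anti-CD40, without a call. In sph/sph, Csf1r stood at 4284 to 5506 CPM with saline and at 2019 to 2970 CPM with anti-CD40. Cd68 stood there at 1066 to 1424 and 640 to 860 CPM. None of the 10 markers was called for anti-CD40 in sph/sph, where the means of Itgam, Lyz2 and Aif1 rose. Adgre1, the gene of F4/80, stood at 1430 to 1942 CPM in the saline libraries, at 1101 to 2237 CPM in sph/sph anti-CD40 and at 39.8 to 173 CPM in WT anti-CD40. The Kupffer cell marker Clec4f stood at 2.41 to 7.53 CPM in WT anti-CD40, at 828 to 3869 CPM in sph/sph anti-CD40 and at 5989 to 10361 CPM in the saline libraries. Markers of other cells differed between groups. The summed level of 19 erythroid markers was 77.6 to 340 CPM in WT saline, 5992 to 9528 CPM in sph/sph saline, 36.1 to 212 CPM in WT anti-CD40 and 4879 to 17448 CPM in sph/sph anti-CD40, with 18 of the 19 called higher in sph/sph under saline and all 19 under anti-CD40. That of 15 T and NK cell markers was 12.2 to 27.6 CPM in the saline libraries, 255 to 2172 CPM in WT anti-CD40 and 6.14 to 148 CPM in sph/sph anti-CD40. That of 10 dendritic cell markers was 199 to 266 CPM under saline, 1270 to 2325 CPM in WT anti-CD40 and 238 to 578 CPM in sph/sph anti-CD40. The part of these cells in the results below was not tested. In bulk samples, fewer cells of a type and less RNA per cell cannot be told apart.

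HIF binds the core letters ACGTG or GCGTG, and the sequences just upstream of the 4 genes with the smallest adjusted p under saline are shown because each holds such letters. RefSeq promoter windows (GRCm38.p6, the 250 bases before a start site) were at hand for 35 of the 38 genes, in 51 windows. Either motif was found on either strand in 40 of the 51 windows (78.4%), against 38.6% of all 32851 windows in the RefSeq table. Overlapping matches each count, so CACGTG, which holds ACGTG on both strands, counts as 2. Some windows of the same gene overlap, as for Aldoa, Eno1 and Pfkm, so the windows are not independent and a motif can lie in more than 1. The windows of these genes were also richer in CpG, with a median of 14 CpG against 6 over all windows, and both motifs hold a CpG. Of the 35 genes 32 had a motif in at least 1 window, and Gpi1, Tpi1 and Eno2 had none. All 7 genes called under saline had one. A match describes the letters only. Below, motif letters are in capitals and all else is in lower case, each 5′ to 3′ on the strand of the gene. They stand for Egln3 at chr12:54203875-54204124 (minus strand, 1 motif), Ankrd37 at chr8:45999851-46000100 (minus strand, 4 motifs), Slc16a1 at chr3:104638414-104638663 (plus strand, 4 motifs) and Bnip3 at chr7:138909507-138909756 (minus strand, 5 motifs). Of all RefSeq windows 2.58% held 4 or more motifs and 1.01% held 5 or more.
Egln3: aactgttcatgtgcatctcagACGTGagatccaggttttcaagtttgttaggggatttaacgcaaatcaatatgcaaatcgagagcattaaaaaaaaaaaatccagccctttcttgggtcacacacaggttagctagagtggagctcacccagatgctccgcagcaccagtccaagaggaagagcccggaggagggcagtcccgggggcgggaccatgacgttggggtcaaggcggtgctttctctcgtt
Ankrd37: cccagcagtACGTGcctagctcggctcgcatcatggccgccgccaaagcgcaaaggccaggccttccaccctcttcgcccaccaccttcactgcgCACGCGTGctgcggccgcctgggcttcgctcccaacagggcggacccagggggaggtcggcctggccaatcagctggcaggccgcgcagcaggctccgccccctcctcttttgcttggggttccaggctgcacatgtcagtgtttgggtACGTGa
Slc16a1: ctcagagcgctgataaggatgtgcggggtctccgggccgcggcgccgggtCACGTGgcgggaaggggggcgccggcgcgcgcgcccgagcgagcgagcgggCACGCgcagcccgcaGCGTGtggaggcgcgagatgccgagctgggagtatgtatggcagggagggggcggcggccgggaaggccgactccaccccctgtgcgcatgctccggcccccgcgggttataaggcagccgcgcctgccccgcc
Bnip3: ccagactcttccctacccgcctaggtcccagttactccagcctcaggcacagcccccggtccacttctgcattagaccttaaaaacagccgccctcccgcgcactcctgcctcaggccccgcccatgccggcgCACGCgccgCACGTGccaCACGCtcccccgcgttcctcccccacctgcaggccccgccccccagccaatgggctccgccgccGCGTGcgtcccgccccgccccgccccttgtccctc

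The first comparison set saline-treated sph/sph mice against saline-treated WT mice, and so describes macrophage-enriched cells of mice with lasting red cell destruction and no further stimulus. Of the 38 genes 7 were called, all higher in sph/sph, against 2.04% of all genes tested (1.6% higher, 0.433% lower). They were an oxygen sensor (Egln3), an ankyrin repeat gene induced by HIF (Ankrd37), the glucose carrier Slc2a1, the lactate and pyruvate carriers Slc16a3 and Slc16a1, the kinase Pdk1, which holds pyruvate back from the mitochondrion, and Bnip3, a receptor for the removal of mitochondria. At an unadjusted p under 0.05 there were 21 genes, all higher, against 13.1% of all genes. The median log2 fold of the 38 was 0.98, and that of all genes 0.01. In 24 genes all sph/sph saline libraries lay above all WT saline libraries, and in 1 (Pfkfb4) all lay below, whereas over all genes 16.7% lay above and 14.3% below.

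**Figure D1:**
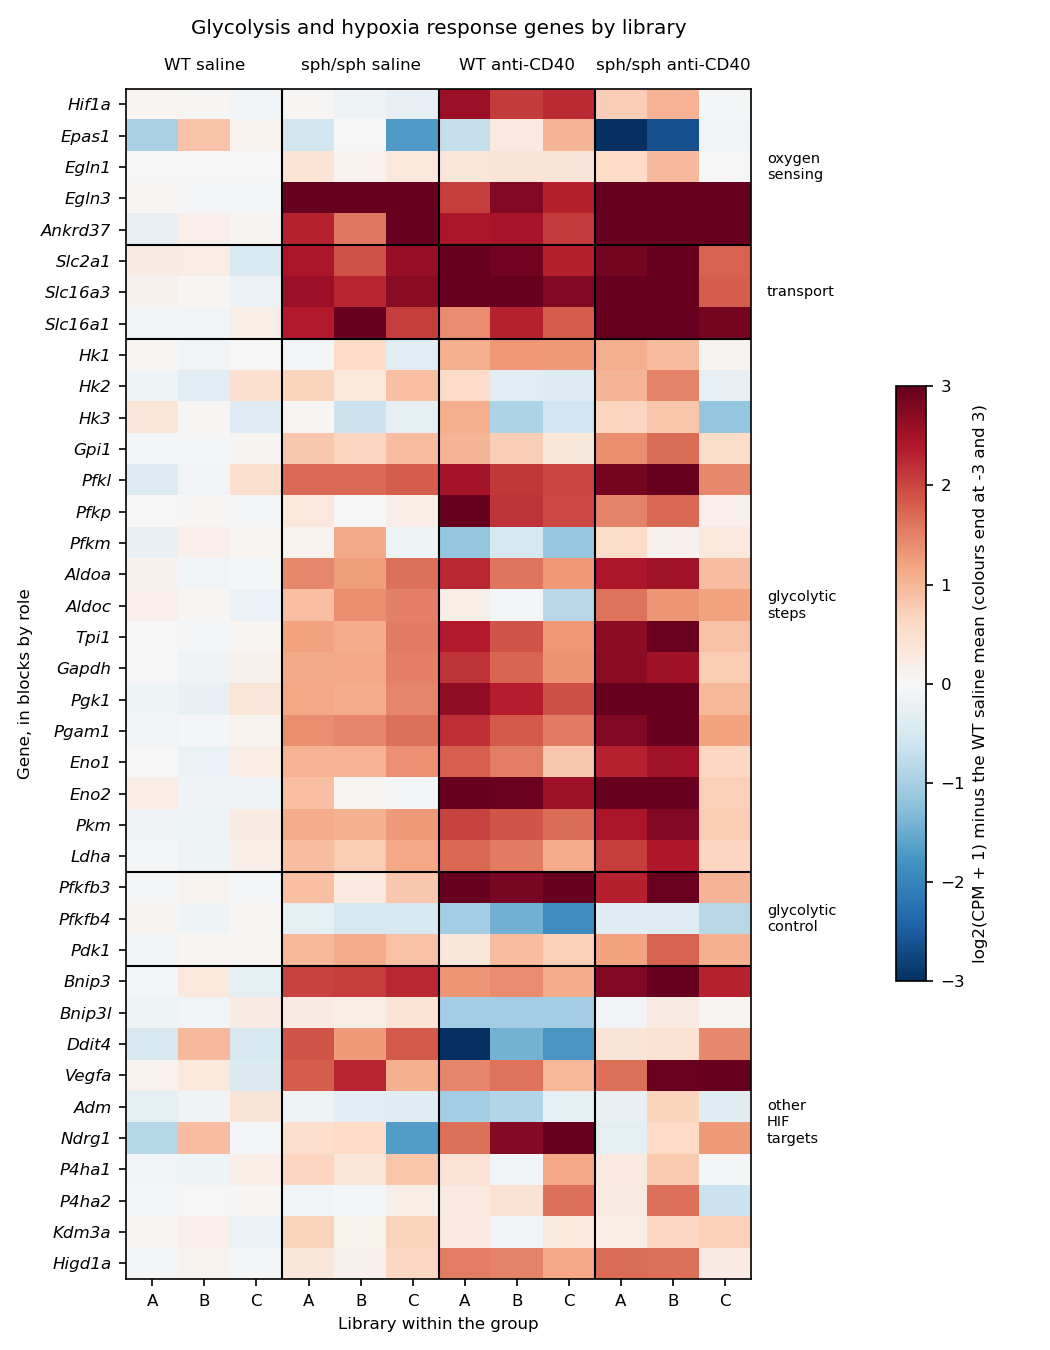
Heat map of the 38 genes (rows, in blocks by role) in the 12 libraries (columns, 3 per group). Colour gives log2(CPM + 1) minus the mean of the WT saline libraries, ending at -3 and 3. Most rows of the transport and glycolytic step blocks are red in sph/sph saline and deeper red under anti-CD40. The third sph/sph anti-CD40 column has the lowest value of its group in 16 of the 17 glycolytic steps.

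Among the oxygen sensing genes, Egln3 (ENSMUSG00000035105, chromosome 12, 54178981 to 54203860) stood at 0.900, 0.769 and 0.776 CPM in the WT saline libraries A to C. In sph/sph saline it reached 14.1, 15.7 and 13.6 CPM. Egln3 encodes PHD3, a prolyl hydroxylase that HIF itself induces. Its groups were far apart with little spread within either, a rise of 17.6-fold (log2 fold 4.14 ± 0.31, SE; edgeR adjusted p = 0.000191). Ankrd37 stood at 0.514, 0.989 and 0.887 CPM in saline-treated WT and, for sph/sph, at 7.78, 4.33 and 18.2 CPM. Its sph/sph libraries varied by more among themselves, with the third the highest, yet did not overlap WT (3.65 ± 0.50; edgeR adjusted p = 0.00608). Without the third the log2 fold was 2.91, and limma-voom did not call the gene (adjusted p = 0.0579). Ankrd37 shares 349 exon bases with Lrp2bp and 57 with Ufsp2 on the other strand, and whether counting used strand is not given, so its reads are uncertain. The sensor Egln1, which encodes the main HIF prolyl hydroxylase, stood at 48.6 ± 0.176 and 59.2 ± 6.28 CPM (SD, n = 3; edgeR adjusted p = 0.623). The alpha subunits were not called: Hif1a stood at 76.0 ± 4.17 CPM in WT, with 70.0 ± 7.48 CPM for sph/sph (log2 fold -0.12 ± 0.24; edgeR adjusted p = 0.885), and Epas1 at 123 ± 71.7 and 71.2 ± 37.9 CPM.

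The carriers at both ends of the pathway all rose. Slc2a1, which encodes GLUT1 and brings glucose into the cell, stood at 23.9, 23.6 and 14.5 CPM in saline-treated WT and, for sph/sph, at 114, 78.9 and 129 CPM (log2 fold 2.38 ± 0.43; edgeR adjusted p = 0.0215). Slc16a3, which encodes the lactate exporter MCT4, stood at 13.8, 12.9 and 10.8 CPM against 79.0, 64.8 and 87.4 CPM (2.63 ± 0.57; edgeR adjusted p = 0.0459). Slc16a1, which encodes MCT1, a carrier that moves lactate and pyruvate either way, stood at 3.60, 3.57 and 4.49 CPM against 24.3, 41.4 and 19.4 CPM (2.87 ± 0.32; edgeR adjusted p = 0.00324). For each of the 3 carriers the lowest sph/sph library was above the highest WT library. The calls of Slc2a1 and Slc16a3 did not hold in 5 and 10 of the 12 fits that left out 1 library, with edgeR adjusted p up to 0.105 and 0.189. MCT1 is also a protein of red cells, and the erythroid markers given above were high in the same libraries.

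The enzymes in between moved less. Of the 17 genes of glycolytic steps none was called by edgeR, although 11 had an unadjusted p under 0.05, all higher, and DESeq2 called 5 (Pfkl, Aldoa, Aldoc, Gapdh and Pgam1) and limma-voom 1 (Pfkl). Their summed level was 2937 ± 182 CPM in WT saline (2731 to 3077) and 5948 ± 660 CPM in sph/sph saline (5365 to 6664), without overlap. Aldoa, the main aldolase here, stood at 560, 482 and 493 CPM against 1398, 1227 and 1609 CPM (log2 fold 1.46 ± 0.39; edgeR adjusted p = 0.101). The closest to the threshold were Aldoc (1.45 ± 0.33; edgeR adjusted p = 0.0531) and Pfkl, the liver-type phosphofructokinase (1.71 ± 0.41; edgeR adjusted p = 0.0642). The hexokinases Hk1, Hk2 and Hk3, which trap glucose as its phosphate, had log2 folds of 0.13, 0.61 and -0.31, with edgeR adjusted p from 0.613 to 0.889. The fit takes 1 estimate of the spread from all 12 libraries, among them sph/sph anti-CD40 C, which is in neither group. Without sph/sph anti-CD40 C, 19 of the 38 genes were called higher and none lower (3.83% of all genes, 2.72% higher and 1.11% lower), and these included 11 glycolytic steps: Gpi1, Pfkl, Aldoa, Aldoc, Tpi1, Gapdh, Pgk1, Pgam1, Eno1, Pkm and Ldha, with log2 folds from 0.79 (Gpi1) to 1.71 (Pfkl).

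**Figure D2:**
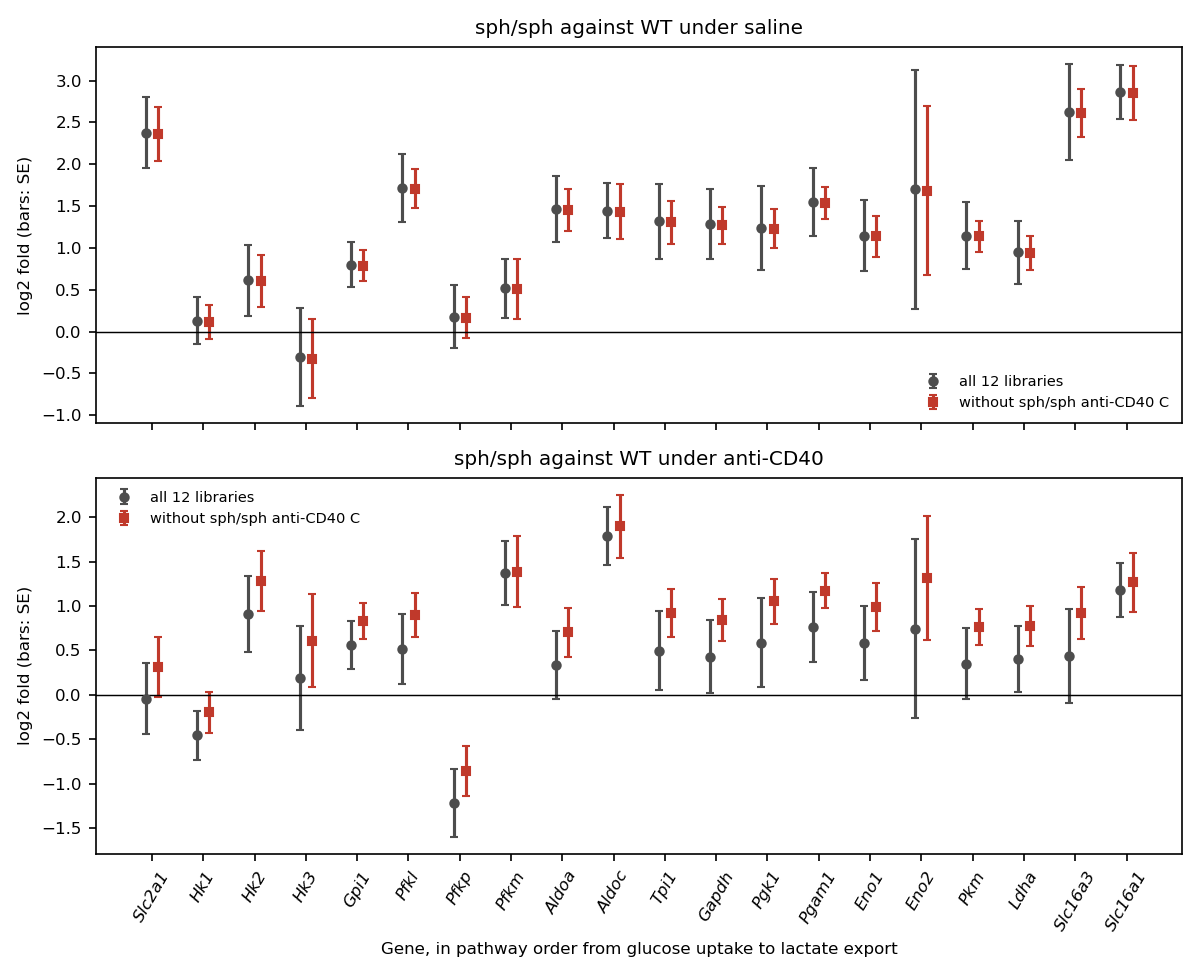
Log2 fold of sph/sph against WT for 20 genes ordered from glucose uptake to lactate export, under saline (top) and anti-CD40 (bottom); points are edgeR estimates and bars their standard errors, with all 12 libraries (grey circles) and without sph/sph anti-CD40 C (red squares). Under saline the points hardly move without that library while their bars shorten. Under anti-CD40 most points move up, the log2 fold of Aldoa from 0.33 to 0.70.

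Of the genes that control the pathway, Pdk1 stood at 31.3, 34.3 and 33.7 CPM in saline-treated WT and, for sph/sph, at 67.2, 73.0 and 61.6 CPM. Its groups did not overlap, and it rose 2.03-fold (log2 fold 1.02 ± 0.20; edgeR adjusted p = 0.0309; not called in 7 of the 12 fits without 1 library). The bifunctional enzymes that set fructose 2,6-bisphosphate, the activator of phosphofructokinase, had log2 folds of 0.70 ± 0.44 (Pfkfb3) and -0.44 ± 0.22 (Pfkfb4) and were not called. Among 10 further HIF targets Bnip3 alone was called. Bnip3 stood at 11.3, 14.7 and 9.48 CPM in saline-treated WT and, for sph/sph, at 50.5, 52.4 and 59.9 CPM, a rise of 4.58-fold (2.20 ± 0.25; edgeR adjusted p = 0.00324). Bnip3 has stretches near-identical to 5 other genes, none of them in the table, and shares 504 exon bases with a gene model on the other strand. Bnip3l, its paralog, which clears mitochondria from maturing red cells, stood at 90.5, 95.4 and 119 CPM against 121, 114 and 135 CPM, and the groups overlapped (0.27 ± 0.14; edgeR adjusted p = 0.46). Vegfa, an angiogenic growth factor, stood at 4.88, 5.71 and 3.05 CPM against 18.1, 25.4 and 10.4 CPM. Its groups did not overlap, but it missed the threshold (1.98 ± 0.45; edgeR adjusted p = 0.0562) and passed it without sph/sph anti-CD40 C (edgeR adjusted p = 0.0415). The stress gene Ddit4, an inhibitor of mTORC1, stood at 169 ± 108 and 486 ± 109 CPM (1.53 ± 0.53; edgeR adjusted p = 0.214).

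**Figure D3:**
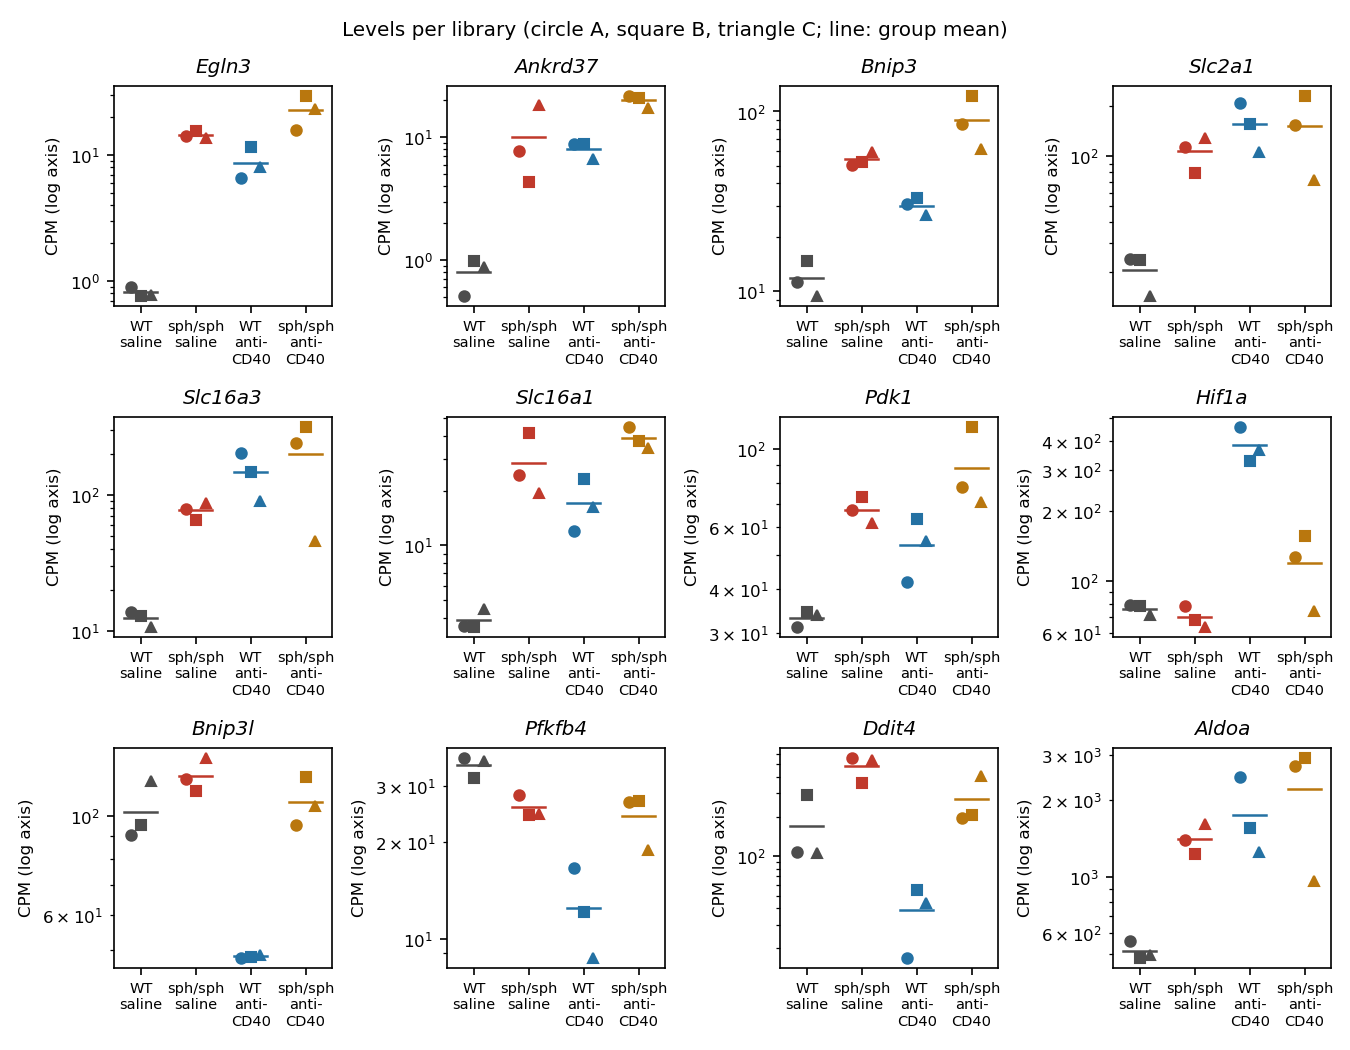
Level in CPM (log axis) of 12 of the genes in each library, by group (circle, square and triangle for libraries A, B and C), with the group mean as a line. Egln3 and Bnip3 lie higher in sph/sph than in WT under either treatment, whereas Hif1a is highest in the WT anti-CD40 libraries (328 to 458 CPM) and Bnip3l is lowest there (48.1 to 48.9 CPM).

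The second comparison set WT mice given anti-CD40 against WT mice given saline. Of the 38 genes 24 rose and 4 fell, against 39.2% of all genes called (19.4% higher, 19.7% lower), and their median log2 fold was 1.48 against 0.05. In 27 genes all WT anti-CD40 libraries lay above all WT saline libraries and in 5 all lay below, against 29.3% and 28% of all genes. By role, 3 of 5 oxygen sensing genes rose, as did 3 of 3 carriers, 12 of 17 glycolytic steps, 2 of 3 control genes and 4 of 10 further HIF targets. The genes that fell were Pfkm, Pfkfb4, Bnip3l and Ddit4. Without sph/sph anti-CD40 C, 26 rose and 4 fell (46.8% of all genes, 23.4% in each direction). Beside these changes most of the macrophage and Kupffer cell transcripts given above, F4/80 among them, were low in the WT anti-CD40 libraries. T and NK cell and dendritic cell markers were high there. Markers of monocytes summed to 261 to 412 CPM in WT saline and 889.7 to 2485 CPM in WT anti-CD40 (4 of 10 called higher), and those of neutrophils to 155 to 200.4 and 212 to 656 CPM (6 of 14 called higher).

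Hif1a (ENSMUSG00000021109, chromosome 12, 73901375 to 73947530) stood at 78.9, 78.0 and 71.3 CPM in WT saline and at 458, 328 and 365 CPM in WT anti-CD40. Every treated library was more than any saline library by a wide margin, a rise of 5.05-fold (log2 fold 2.34 ± 0.25; edgeR adjusted p = 0.00012). Part of its exons, 148 bases, is shared with a second gene model on the same strand. Egln3 rose to 6.58, 11.5 and 8.12 CPM (3.41 ± 0.30; edgeR adjusted p = 3.78e-05) and Ankrd37 to 8.78, 8.87 and 6.60 CPM (3.32 ± 0.50; edgeR adjusted p = 0.000741). Both remained below their highest sph/sph saline library. Epas1, which besides macrophages marks endothelial cells, stood at 65.0, 133 and 221 CPM in WT anti-CD40 A, B and C and was not called. The summed level of 12 endothelial markers in the same libraries was 1346, 3031 and 5209 CPM, in the same order.

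The carriers rose to levels above those of sph/sph saline only in part. Slc2a1 reached 209, 156 and 106 CPM (log2 fold 2.92 ± 0.44; edgeR adjusted p = 0.000742) and Slc16a3 202, 147 and 90.6 CPM (3.55 ± 0.59; edgeR adjusted p = 0.00136). Slc16a1 reached 12.04, 23.2 and 16.2 CPM (2.14 ± 0.32; edgeR adjusted p = 0.000682). For Slc2a1 and Slc16a1 these values overlapped those of sph/sph saline, and for Slc16a3 they lay above.

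In the pathway itself, the summed level of the 17 step genes was 8353 ± 2305 CPM in WT anti-CD40 (6305 to 10850), and library A was the highest of its group in 15 of the 17. Pfkp, the platelet-type phosphofructokinase, stood at 47.1, 48.3 and 45.1 CPM in WT saline and at 396, 213 and 188 CPM in WT anti-CD40 (log2 fold 2.50 ± 0.40; edgeR adjusted p = 0.00103). It had stood at 58.2, 47.1 and 53.8 CPM in sph/sph saline, where its level overlapped WT. Pfkp shares 748 exon bases with Pitrm1 on the other strand. Hk1 (1.23), Pfkl (2.20), Aldoa (1.78), Tpi1 (1.93), Gapdh (1.79), Pgk1 (2.34), Pgam1 (1.94), Eno1 (1.43), Pkm (1.87) and Ldha (1.48) rose as well. Eno1 and Ldha were not called in 4 and 1 of the 12 fits without 1 library. Gapdh, Pgk1, Eno1 and Ldha have near-identical copies in the genome, of which those in the table held at most 133 counts in all, and reads of copies could not be told apart from theirs. Tpi1, Pgam1, Pkm and Gpi1 each have a stretch near-identical to 1 other gene, which is not in the table. Pkm also shares 767 exon bases with another gene model on the same strand.

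Eno2, the neuron-type enolase, went from near absence. It had 7 counts over the 3 WT saline libraries and 506 over the 3 WT anti-CD40 libraries, a ratio of 68.8 (95% interval 33.2 to 172, for counting error only; edgeR adjusted p = 0.00673). Its fitted log2 fold went from 6.08 to 7.29 without WT saline A, and limma-voom did not call it (adjusted p = 0.114). At 15.96, 7.92 and 5.66 CPM it remained far below Eno1 at 711, 603 and 364 CPM. Per kilobase of exon the means were 2.09 and 104 CPM. Pfkm, the muscle-type phosphofructokinase, fell from 8.997, 11.9 and 11.1 CPM to 4.19, 7.35 and 4.28 CPM (log2 fold -1.01 ± 0.36; edgeR adjusted p = 0.0464; not called in 8 of the 12 fits without 1 library). Hk2, Hk3, Gpi1 and Aldoc were not called, with log2 folds of -0.02, 0.12, 0.73 and -0.22.

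The paralogs Pfkfb3 and Pfkfb4 moved in opposite directions. Pfkfb3, whose enzyme mostly makes fructose 2,6-bisphosphate, rose from 39.0, 43.8 and 39.2 CPM to 386, 296 and 662 CPM (log2 fold 3.46 ± 0.48; edgeR adjusted p = 0.000492). Pfkfb4 fell from 36.6, 31.8 and 35.9 CPM to 16.6, 12.1 and 8.72 CPM (-1.48 ± 0.23; edgeR adjusted p = 0.000841). Neither overlapped its saline group. The paralogs Bnip3 and Bnip3l also parted: Bnip3 rose to 30.5, 33.1 and 26.4 CPM (1.34 ± 0.24; edgeR adjusted p = 0.00217), and Bnip3l fell to 48.1, 48.3 and 48.9 CPM (-1.07 ± 0.14; edgeR adjusted p = 0.000386). Ddit4 fell from 107, 294 and 106 CPM to 16.8, 55.1 and 43.8 CPM (-2.13 ± 0.54; edgeR adjusted p = 0.0113; -1.50 without WT saline B). Higd1a (1.48), Ndrg1 (2.82, and 2.13 without WT anti-CD40 C), Vegfa (1.53) and Pdk1 (0.69) rose, the last 3 of which were not called in 3 to 5 of the 12 fits without 1 library. Ndrg1 followed the endothelial sum by library, at 97.9, 209 and 424 CPM. Between treatments the 2 differed. In WT mice the endothelial sum spanned 1561 to 4107 CPM with saline and 1346 to 5209 CPM with anti-CD40, with overlap. Of its 12 markers 1 was called higher. Ndrg1 spanned 16.3 to 58.3 CPM with saline, below all its values with anti-CD40. The part of endothelial cells in the rise of Ndrg1 was not tested. Adm, P4ha1, P4ha2 and Kdm3a were not called.

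The third comparison, anti-CD40 against saline in sph/sph, turns on sph/sph anti-CD40 C. With all libraries edgeR called none of the 38 genes, against 0.78% of all genes; 17 had an unadjusted p under 0.05, all higher, DESeq2 called 3 (Pgk1, Eno2 and Pfkfb3) and limma-voom none. Without that library edgeR called 19 higher and 1 lower, against 16.9% of all genes (9.83% and 7.04%). The remaining 2 libraries are then taken to vary as the other groups do. The median log2 fold was 0.65 with the library and 0.91 without it. In 3 genes (Egln3, Pfkfb3 and Bnip3) all treated libraries lay above all saline libraries and in none below, against 10.1% and 11.6% of all genes.

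The library values show the split. The summed level of the 17 step genes was 5365 to 6664 CPM in sph/sph saline, and 13125, 15050 and 4345 CPM in sph/sph anti-CD40 A, B and C. Pgk1, a kinase that makes ATP in glycolysis, stood at 123, 118 and 153 CPM under saline and at 494, 664 and 110 CPM under anti-CD40 (log2 fold 1.69 ± 0.51, edgeR adjusted p = 0.116; without C 2.13 ± 0.26, edgeR adjusted p = 0.00139). Pkm, the pyruvate kinase of most tissues, stood at 966, 943 and 1086 CPM and then at 2459, 3068 and 763 CPM (1.07 ± 0.40, edgeR adjusted p = 0.171; without C 1.46 ± 0.20, edgeR adjusted p = 0.00265). Libraries A and B lay above all saline libraries in 15 of the 17 steps, and C below all of them in 12. Pgam1 (53.6, 56.1 and 64.0 CPM, then 140, 199 and 47.0 CPM), Higd1a (16.3, 14.0 and 20.1 CPM, then 42.9, 41.6 and 15.3 CPM) and Eno2 (1.13, 0.178 and 0.116 CPM, then 23.6, 25.1 and 0.863 CPM) followed the same pattern. Higd1a encodes a mitochondrial protein induced by hypoxia.

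Pfkfb3 stood at 76.5, 49.8 and 72.3 CPM in sph/sph saline and at 209, 323 and 82.8 CPM in sph/sph anti-CD40, so that even library C lay above all saline libraries (log2 fold 1.63 ± 0.44; edgeR adjusted p = 0.0975, and 0.00574 without C). Hif1a stood at 78.3, 68.0 and 63.8 CPM and then at 127, 157 and 74.7 CPM (0.77 ± 0.24; edgeR adjusted p = 0.123). Without C it rose (1.01 ± 0.17; edgeR adjusted p = 0.00616). Bnip3 went from 50.5, 52.4 and 59.9 CPM to 85.5, 122 and 61.6 CPM (0.72 ± 0.24, edgeR adjusted p = 0.135; without C 0.93, edgeR adjusted p = 0.0162). Egln3 went from 14.1, 15.7 and 13.6 CPM to 15.7, 29.4 and 23.3 CPM and was called neither with C nor without it (edgeR adjusted p = 0.187 and 0.163). Slc2a1, Slc16a1, Ankrd37, Pdk1, Vegfa and Ddit4 were likewise not called either way. Epas1 was the 1 gene that fell without C, from 71.2 ± 37.9 CPM to 9.74 and 16.4 CPM in A and B, against 102 CPM in C (without C -2.45 ± 0.73; edgeR adjusted p = 0.0476). The endothelial markers summed to 391, 800 and 3012 CPM in the same 3 libraries and to 929 to 2777 CPM in sph/sph saline. Markers of B and plasma cells summed to 3060 CPM in C and to 69.2 and 256 CPM in the other two.

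The fourth comparison, sph/sph against WT under anti-CD40, asks how the genotypes differ once CD40 is engaged. Of the 38 genes 10 were higher in sph/sph and 1 lower, against 17.7% of all genes called (11.5% higher, 6.19% lower), and the median log2 fold was 0.51 against 0.08. In 11 genes all sph/sph libraries lay above all WT libraries and in 3 all lay below, against 16.7% and 11.7% of all genes. Hif1a was the 1 lower, at 127, 157 and 74.7 CPM in sph/sph against 458, 328 and 365 CPM in WT. Its groups did not overlap, a difference of 3.21-fold (log2 fold -1.68 ± 0.25; edgeR adjusted p = 0.00154). Higher in sph/sph were Egln3, Slc16a1, Aldoc, Pfkm, Pfkfb4, Pdk1, Bnip3, Bnip3l, Ddit4 and Vegfa. The erythroid markers were high in sph/sph under this treatment, as under saline. T and NK cell markers were higher in WT here (6 of 15 called), whereas under saline none was called. Called higher in sph/sph under anti-CD40 were 12 of 14 Kupffer cell and 6 of 10 macrophage markers, with none lower.

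Egln3 stood at 15.7, 29.4 and 23.3 CPM in sph/sph against 6.58, 11.5 and 8.12 CPM in WT (log2 fold 1.38 ± 0.26; edgeR adjusted p = 0.00587), and Slc16a1 at 44.8, 37.5 and 34.5 CPM against 12.04, 23.2 and 16.2 CPM (1.18 ± 0.30; edgeR adjusted p = 0.023). Bnip3 stood at 85.5, 122 and 61.6 CPM against 30.5, 33.1 and 26.4 CPM (1.58 ± 0.24; edgeR adjusted p = 0.00194). In none of these 3 did the groups overlap. The call of Slc16a1 did not hold in 4 of the 12 fits without 1 library (WT anti-CD40 A or C, sph/sph anti-CD40 A or B). Ankrd37, at 21.7, 21.0 and 17.2 CPM, lay above every WT library yet missed the threshold (1.30 ± 0.44; edgeR adjusted p = 0.068). Slc2a1 stood at 155, 231 and 71.5 CPM against 209, 156 and 106 CPM, with overlapping groups (-0.04 ± 0.40; edgeR adjusted p = 0.959).

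The 4 genes called lower with anti-CD40 in WT were called higher in sph/sph under anti-CD40. Both comparisons use the same WT anti-CD40 libraries, so low values there move both, and the second result is not independent of the first. The share of all genes that did the same was not computed. Bnip3l stood at 95.5, 122 and 105 CPM in sph/sph against 48.1, 48.3 and 48.9 CPM in WT (log2 fold 1.15 ± 0.14; edgeR adjusted p = 0.00062). Ddit4 stood at 196, 206 and 408 CPM against 16.8, 55.1 and 43.8 CPM (2.81 ± 0.55; edgeR adjusted p = 0.00723). Pfkfb4 stood at 26.7, 26.8 and 18.9 CPM against 16.6, 12.1 and 8.72 CPM (0.95 ± 0.23; edgeR adjusted p = 0.0164). The fourth such gene, Pfkm, stood at 15.9, 11.6 and 13.5 CPM against 4.19, 7.35 and 4.28 CPM (1.37 ± 0.36; edgeR adjusted p = 0.0266). In all 4 the lowest sph/sph library was above the highest WT library. The call of Pfkfb4 did not hold without WT anti-CD40 B or C or sph/sph anti-CD40 B, and that of Pfkm without WT anti-CD40 A or C or sph/sph anti-CD40 A. Aldoc, an aldolase best known from brain, stood at 16.8, 13.4 and 12.1 CPM against 5.52, 4.51 and 2.22 CPM (1.79 ± 0.33; edgeR adjusted p = 0.00498). Pdk1 stood at 78.0, 116 and 70.9 CPM against 41.8, 63.5 and 54.9 CPM (0.72 ± 0.20; edgeR adjusted p = 0.0325; not called in 5 of the 12 fits without 1 library). Vegfa, at 16.03, 41.3 and 47.4 CPM against 13.9, 15.7 and 9.75 CPM, was at the threshold (1.41 ± 0.44; edgeR adjusted p = 0.04999) and missed it in 10 of the 12 fits without 1 library (edgeR adjusted p up to 0.163) and in all other settings tried but DESeq2. In a fit of only the libraries under anti-CD40, Egln3, Slc16a1, Aldoc, Pfkm, Pfkfb4, Pdk1 and Vegfa were not called (edgeR adjusted p from 0.0545 to 0.215).

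The main glycolytic enzymes did not differ between the genotypes by more than the spread under anti-CD40 when all libraries were used: 15 of the 17 step genes were not called, Aldoa standing at 2207 ± 1080 CPM in sph/sph and 1751 ± 626 CPM in WT (log2 fold 0.33 ± 0.38; edgeR adjusted p = 0.599). Without sph/sph anti-CD40 C, 21 of the 38 genes were higher and 3 lower (24.2% of all genes, 13.5% and 10.8%), and 12 of the 17 steps were higher, with Pgam1 at 1.17 and Pgk1 at 1.05. The 3 lower genes were then Hif1a, Epas1 and Ndrg1. Without WT anti-CD40 C the call fell to 6 genes. Pfkp, the 1 step gene whose libraries were all lower in sph/sph (133, 158 and 52.1 CPM against 396, 213 and 188 CPM), missed the threshold with C and without it (edgeR adjusted p = 0.0505 and 0.0519).

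Whether the response to anti-CD40 itself differed between the genotypes was tested as the interaction, the log2 fold in sph/sph minus that in WT. Of the 38 genes 5 were called, 2 with a positive and 3 with a negative value, against 4.3% of all genes (3.18% and 1.12%), and the median was -0.63 against 0.05. Egln3, Hif1a and Slc2a1 responded less in sph/sph: the log2 fold was 0.66 in sph/sph and 3.41 in WT for Egln3 (difference -2.76 ± 0.39; edgeR adjusted p = 0.00363), 0.77 and 2.34 for Hif1a (-1.56 ± 0.34; edgeR adjusted p = 0.0316), and 0.51 and 2.92 for Slc2a1 (-2.42 ± 0.58; edgeR adjusted p = 0.0451). Egln3 and Slc2a1 started from higher saline levels in sph/sph, whereas Hif1a did not. Pfkfb4 and Bnip3l had fallen in WT, and their responses differed the other way: -0.09 in sph/sph and -1.48 in WT for Pfkfb4 (1.39 ± 0.32; edgeR adjusted p = 0.0371), and -0.20 and -1.07 for Bnip3l (0.88 ± 0.20; edgeR adjusted p = 0.0378). Among the 17 glycolytic steps Pfkp had the smallest p and missed the threshold (-1.40 ± 0.53; edgeR adjusted p = 0.185). Without sph/sph anti-CD40 C the same 5 genes were called, with Slc16a3 in addition (-1.69 ± 0.40; edgeR adjusted p = 0.0406), against 6.7% of all genes (4.3% positive, 2.4% negative). Only Egln3 kept its call in every fit without 1 library. The interaction is computed from the same saline and anti-CD40 libraries as the 2 responses, so its values are set beside theirs and not correlated with them.

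**Figure D4:**
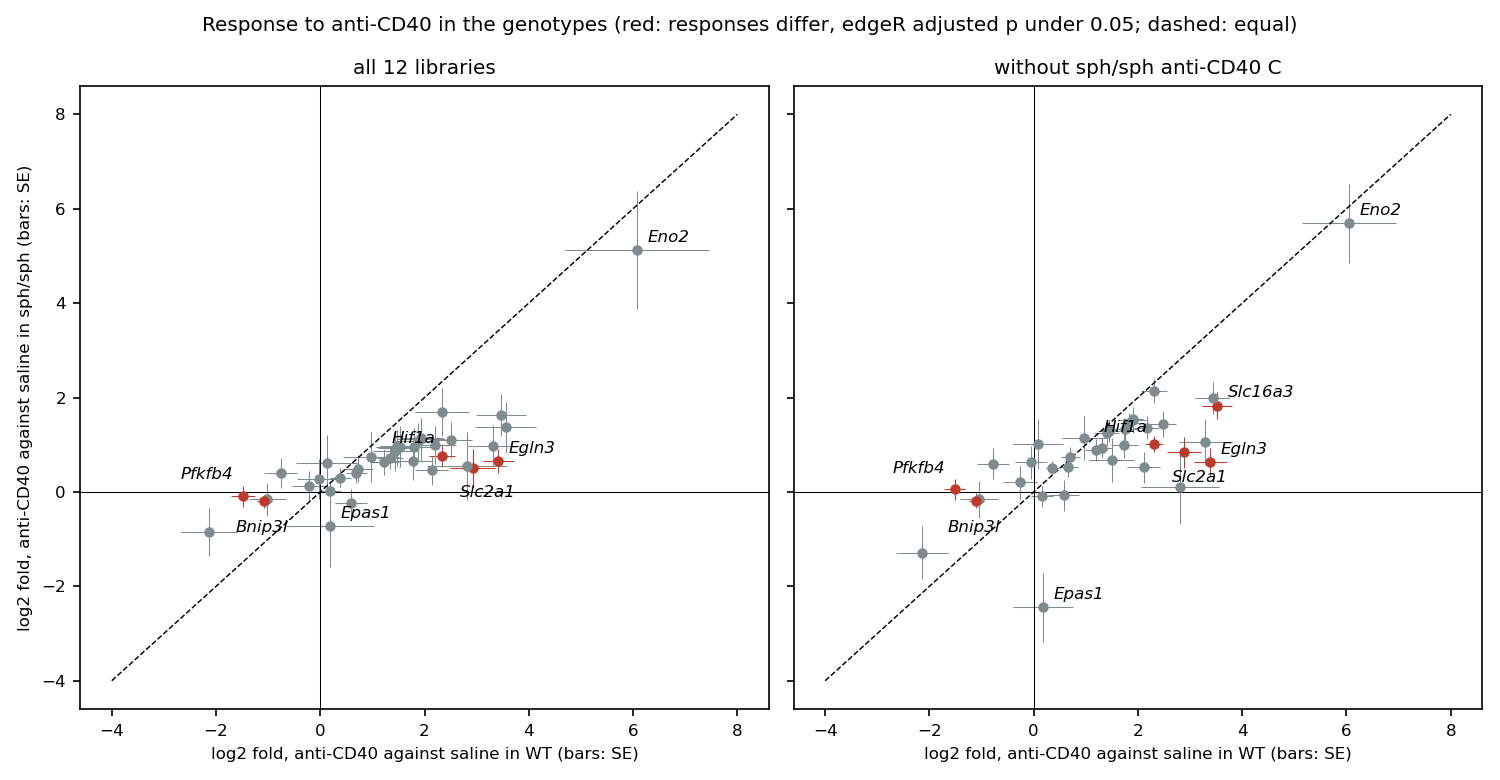
Log2 fold with anti-CD40 in sph/sph (vertical) against that in WT (horizontal) for the 38 genes, with standard errors, for all 12 libraries (left) and without sph/sph anti-CD40 C (right); the dashed line marks equal responses and red points are genes whose responses differed (edgeR adjusted p under 0.05). Egln3 lies at 3.41 and 0.66, below the line, and Pfkfb4 at -1.48 and -0.09, above it; without C the grey points of the glycolytic steps move towards the line.

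Which member of an enzyme pair or trio supplied the reads also differed between groups, given here as the share of reads per kilobase of exon within a step, as a description with no test. Pfkp made up 25.4 ± 5.1% of phosphofructokinase in WT saline and 34.8 ± 5.49% in WT anti-CD40, against 12.1 ± 1.79% and 14.0 ± 0.542% in sph/sph (SD, n = 3). Pfkl held 51.8% and 62.2% in WT and 74.2% and 77.5% in sph/sph. In this share sph/sph anti-CD40 C did not stand apart: Pfkp took 14.5%, 13.4% and 14.1% in A, B and C, below all 6 WT libraries (20.1% to 41.2%). Pfkfb3 made up 43.0 ± 3.5% of its pair with Pfkfb4 in WT saline, 62.0 ± 4.53% in sph/sph saline, 95.3 ± 2.37% in WT anti-CD40 and 82.0 ± 7.5% in sph/sph anti-CD40. No 2 of these 4 groups overlapped. Among hexokinases Hk3, a form of myeloid cells, held 82.6 ± 6.41%, 74.3 ± 4.5%, 73.3 ± 11.4% and 75.8 ± 4.75% in the same order, with overlap. Hif1a held 40.6 ± 15.7%, 51.0 ± 13.9%, 72.7 ± 13.2% and 74.5 ± 29.1% of the alpha subunits, and 92.5%, 90.1% and 40.9% in sph/sph anti-CD40 A, B and C. Slc16a3 held 72.6 ± 5.14%, 69.5 ± 11.6%, 86.6 ± 5.92% and 73.8 ± 18.6% of the 2 lactate carriers. Aldoa held 98.9% or more of aldolase reads in every library.

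**Figure D5:**
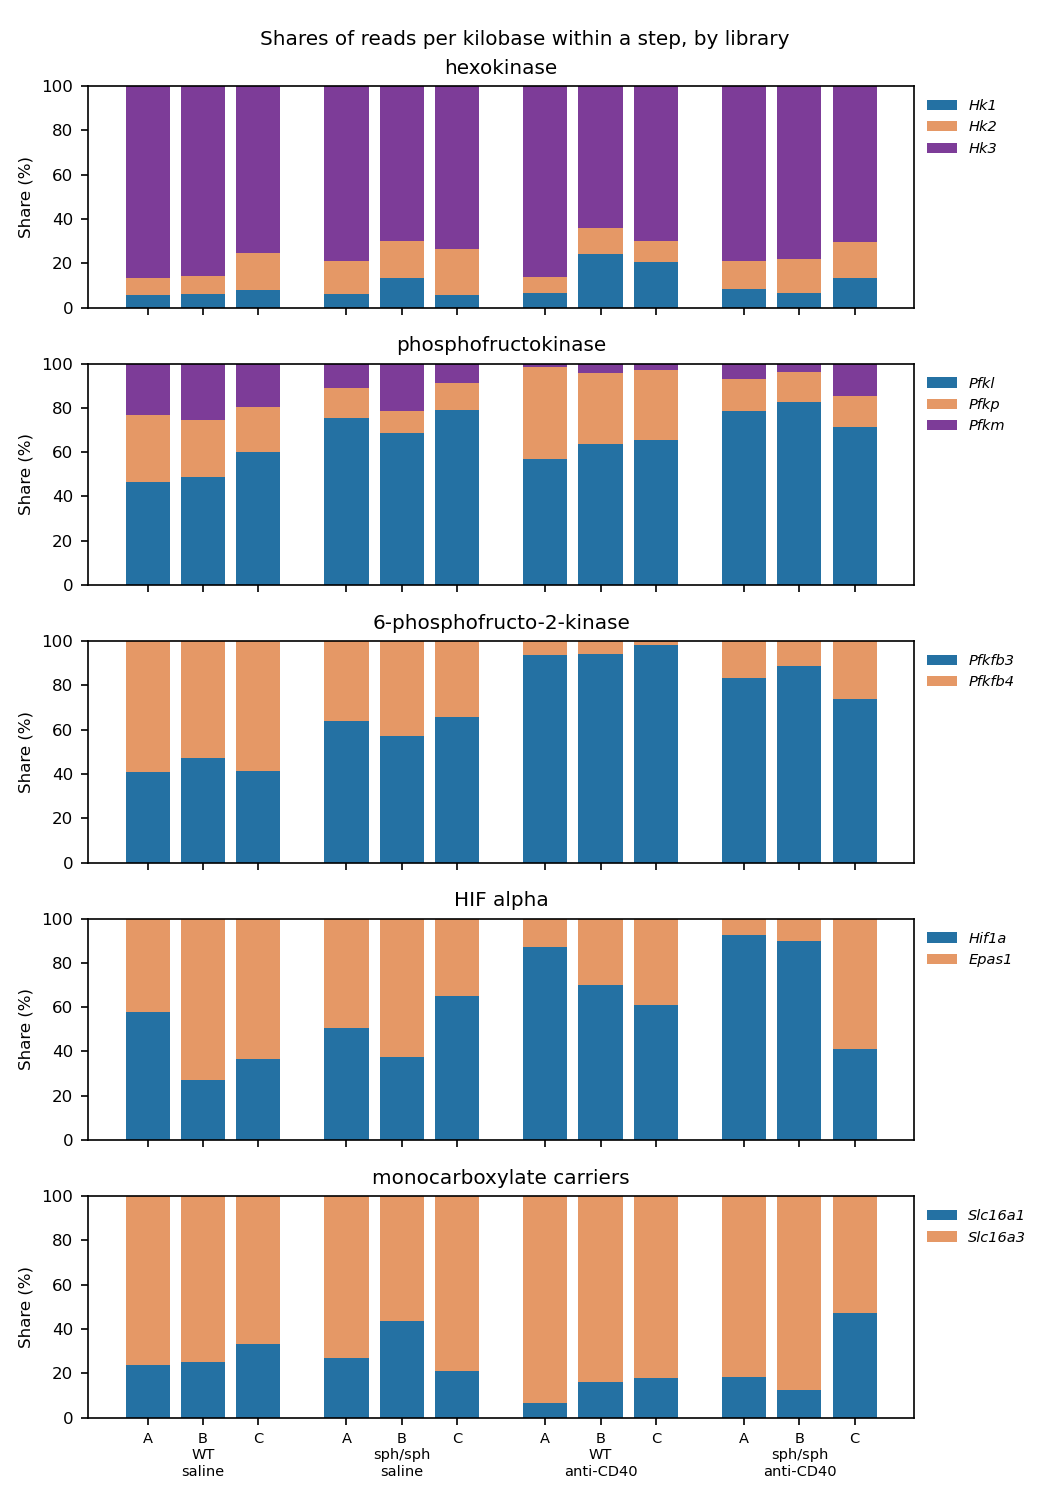
Share of reads per kilobase of exon that each gene takes within hexokinase, phosphofructokinase, 6-phosphofructo-2-kinase, HIF alpha subunits and monocarboxylate carriers, as stacked bars from 0 to 100% for each library. Pfkp is narrower in all 6 sph/sph libraries (10.2% to 14.5%) than in all 6 WT libraries, and Pfkfb3 widens from 43.0% on average in WT saline to 95.3% in WT anti-CD40.

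Other genes of the pathway were tested on lists beside the 38. Under saline 2 of 25 tested genes of glycolysis and gluconeogenesis were higher in sph/sph and none lower, Bpgm (log2 fold 3.01 ± 0.37; edgeR adjusted p = 0.00459), whose enzyme makes 2,3-bisphosphoglycerate in red cells, and G6pc3 (0.55 ± 0.11), a glucose phosphatase. Of 20 glycogen genes 1 was higher, Gyg (1.17 ± 0.25), the primer of glycogen. Of 53 further HIF and hypoxia targets 5 were higher and none lower, against 1.6% and 0.433% of all genes, among them Tfrc, the transferrin receptor (2.12 ± 0.36), Narf (1.43), Mt2, a metallothionein (2.57), and Bhlhe41, a repressor of transcription (1.94). The median log2 folds were 0.20 over 15 other carriers, 0.19 over 14 genes of pyruvate entry into mitochondria and -0.10 over 16 genes of the HIF machinery. Bpgm and Tfrc are genes of red cell precursors as well.

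With anti-CD40 in WT the lists differed in their counts, which stand against 19.4% of all genes called higher and 19.7% lower. Of the 25 glycolysis and gluconeogenesis genes 4 rose and 11 fell, the falls led by Adpgk, an ADP-dependent glucokinase (log2 fold -1.88 ± 0.18), Gpd1 (-4.74 ± 0.65) and Pklr, the pyruvate kinase of liver and red cells (-3.13 ± 0.55). Of the other carriers 2 rose and 7 fell, with Emb, a chaperone of monocarboxylate carriers, at 3.39 and the high-affinity carrier Slc16a7 at -3.80. Of the glycogen genes 2 rose and 11 fell, with Phka2 at -1.77 and Pygb at -1.62. Of 12 hepatocyte markers 2 were called lower and none higher; their sum was 979 to 3207 CPM in these libraries and 3369 to 5681 CPM in WT saline, whereas the means of Fga and Fgb were 236 and 256 CPM here and 100.1 and 109.6 CPM in WT saline. Of 14 genes of pyruvate entry 3 rose and 3 fell, near the shares over all genes, with Mpc1, a subunit of the mitochondrial pyruvate carrier, at 1.19 and Pdk2 at -2.31. Of 16 genes of the HIF machinery 2 rose and 4 fell, among them Arnt, the partner of the alpha subunits (-0.71 ± 0.15). Of the 53 further targets 22 rose and 7 fell, and those that rose included Mt2 (4.32 ± 0.53), Maff (6.04) and Bhlhe40 (2.62).

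In sph/sph, anti-CD40 gave 3 calls on these lists with all libraries (0.78% of all genes), among them Cxcr4 (log2 fold 1.59 ± 0.29) and Slc2a8 (-1.10 ± 0.21). Without sph/sph anti-CD40 C it gave 13 rises and 3 falls among the further targets, and 4 and 6 among glycolysis and gluconeogenesis genes, against 9.83% and 7.04% of all genes. Under anti-CD40, 7 of these 25 genes were higher in sph/sph than in WT and none lower, Bpgm at 3.43 ± 0.37, Adpgk at 1.47 ± 0.18 and Pklr at 3.22 ± 0.55, as were 6 of 15 other carriers and 6 of 20 glycogen genes, against 11.5% of all genes higher and 6.19% lower. The further targets split into 8 higher and 5 lower, with Tfrc at 1.95 ± 0.36, Cox4i2 at 4.24 ± 0.75 and Bhlhe40 at -1.38. The interaction was called for Adpgk (1.66 ± 0.25), Slc16a7 (2.86 ± 0.49), Phka2 (1.33) and Pygb (1.12), and for the further targets Mt2 (-3.88 ± 0.67), Bhlhe40 (-2.34) and Slc6a8 (-2.44), a creatine carrier.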

How the data were processed

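The authors deposited 1 table of raw read counts per gene, with no normalization that the values show. The submitters' processing notes name featureCounts, SAMtools 1.9, STAR 2.7.0e and build GRCm38.p5. The annotation release, strand setting and treatment of multi-mapping reads are not given in the sources used. The kit was TruSeq stranded per the labels' protocols. Genes overlapping another gene, and genes with near-identical copies (95% identity over 300 bases or more), are therefore uncertain.

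Counts were tested with R 4.3.3 and edgeR 4.0.16, using filterByExpr by group, TMM factors, a robust quasi-likelihood fit with 1 mean per group over all 12 libraries and no covariate, quasi-likelihood F tests, and Benjamini-Hochberg adjustment over the 13844 genes that passed, with a threshold of 0.05. The common biological coefficient of variation was 0.382. A standard error is the size of the log2 fold over the root of F. Levels are CPM on TMM-scaled library sizes. Gene lengths are unions of GENCODE M21 exons on GRCm38, and coordinates count from 1. The symbol Aldoa belongs to 2 identifiers, of which the one with nearly all reads was used. The sequences are RefSeq's (GRCm38.p6). The deposited columns carry the genotype and treatment but no replicate number; a number shared by 2 pairs of columns was tried as a block.

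Values in every library are given for members called for genotype or interaction and for the 10 smallest adjusted p of each response to anti-CD40. Of other pathway genes, at most 6 called per list are named. The 38 genes and all lists were chosen with earlier results of these data known. Alternatives were RLE factors, total counts, DESeq2 1.42.0, limma-voom 3.58.1, no low-count filter, only the groups compared, a term for sex read from Y-linked genes, each library left out, and shares of raw reads. The code was tested on simulated data. Values of 2 genes, which the counts over lists include, are not reported here.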

Additional observations from a re-analysis of the deposited data

Results flagged for a closer look

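In 5 of the 38 genes the response to anti-CD40 differed between sph/sph and WT by the test of the difference itself (edgeR, sph/sph response minus WT response, log2). The differences were -2.76 for Egln3, -2.42 for Slc2a1 and -1.56 for Hif1a, with the smaller response in sph/sph. They were 1.39 for Pfkfb4 and 0.88 for Bnip3l, which fell in WT. At this threshold 4.3% of all genes tested were called for the same difference. Only the call of Egln3 held in each of the 12 fits that left out 1 library. Of the marker lists, 9 of 14 Kupffer cell and 2 of 10 macrophage markers were called for the same difference, all positive, as were 2 of 15 T and NK cell markers and 1 of 14 neutrophil markers, all negative, and none of 19 erythroid markers. Kupffer cell markers summed to 1431 to 2659 CPM in WT anti-CD40 and 25174 to 42247 CPM in sph/sph anti-CD40. Under saline they summed to 34826 to 55722 CPM. Marco made up much of the sph/sph anti-CD40 sums, with 16800, 21801 and 5734 CPM in A, B and C. Without the antibody its mean was already 11326 CPM for sph/sph, against 654 for WT. Within sph/sph, the means of all listed markers but Marco and Nr1h3 were lower after anti-CD40, though none of the 14 was called. Clec4f went from 7696 to 2099 CPM there and Vsig4 from 3105 to 1131 CPM. The part of Kupffer cells in these differences was not tested.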

How the results depend on the processing

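The counts of called genes were recomputed under 8 other settings (7 for the interaction) and without each library in turn. So was the direction of each member in each comparison where it was called with all libraries or without sph/sph anti-CD40 C. The 28 members called for anti-CD40 in WT became 25 to 30 under the other settings and 23 to 30 without 1 library. The 7 members called under saline became 13 with DESeq2 and 19 with only the groups compared, and ranged from 4 to 19 without 1 library. The 4 calls arose without any 1 of the WT saline libraries, sph/sph saline A or sph/sph saline C, and the 19 without sph/sph anti-CD40 C. The count of 0 for anti-CD40 in sph/sph became 3 with DESeq2 and ranged from 0 to 20 without 1 library, 20 only without sph/sph anti-CD40 C. The 11 members called for genotype under anti-CD40 became 5 with only the groups compared and ranged from 6 (without WT anti-CD40 C) to 24 (without sph/sph anti-CD40 C). The 5 members of the interaction became 9 with DESeq2 and 3 without the low-count filter, and ranged from 1 to 6 without 1 library. The cause of these shifts was not tested. Of the calls, 3 of 7 under saline (Egln3, Slc16a1 and Bnip3), 21 of 28 for anti-CD40 in WT, 4 of 11 for genotype under anti-CD40 and 1 of 5 for the interaction held in every fit. For genotype under anti-CD40 the log2 fold of Slc16a3, not called, ranged from -0.0496 (without sph/sph anti-CD40 B) to 0.92 (without C), and that of Pkm, not called, from -0.026 to 0.76 without the same libraries. As shares of raw reads, not divided by length, Hk3 held 71.8%, 61.2%, 58.2% and 62.5% and Pfkp 44.4%, 22.9%, 52.2% and 25.6% (WT and sph/sph under saline, then WT and sph/sph under anti-CD40). Pfkfb3 held 53.9% and 71.7% in the saline groups. Over all genes, DESeq2 called 810 against 282 under saline, 1286 against 108 for anti-CD40 in sph/sph and 1337 against 595 for the interaction, and fits of only the groups compared called 891 under saline, 0 for anti-CD40 in sph/sph and 735 against 2455 for genotype under anti-CD40. The columns carry no replicate number, but 2 pairs of A libraries, one under each treatment, share a header number between genotypes. A replicate block on these numbers, added after seeing the data, left 6 called members under saline, 25 for anti-CD40 in WT, 0 for anti-CD40 in sph/sph, 10 for genotype under anti-CD40 and 2 (Egln3 and Pfkfb4) for the interaction. The same A libraries are those without Y-linked counts, so the 2 cannot be told apart. At 14991250 to 18984067 counts per library, genes such as Eno2 in WT saline (7 counts in all) are limited by counting error.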
